A study of Mus musculus with 9 samples.

Results

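The genes described here encode the proteins of the cytosolic ribosome, measured in liver of hypercholesterolemic mice with and without the cytokine MIF-2. They were chosen by symbol from the protein-coding genes of the count table: Rpl or Rps followed by a digit, Rplp0, Rplp1, Rplp2 and Rpsa, leaving out the Rps6k kinases and pseudogenes. The rule took 89 of the 27179 genes. Of these, 43 encode proteins of the large subunit, 31 proteins of the small subunit and 3 the P-stalk of the large subunit, together 77 genes that are called the core genes below. A further 11 are paralogs of a core gene, and the last, Rps19bp1, encodes a protein that binds Rps19 and is not itself part of the ribosome.

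RNA was sequenced from frozen liver sections of female mice on a high-fat diet, which they ate for 12 weeks from 8 weeks of age. The 5 Apoe-/- libraries come from mice without apolipoprotein E, which clears lipoprotein remnants from blood, and the 4 Mif-2-/- Apoe-/- libraries from mice that also lack MIF-2, or D-dopachrome tautomerase, encoded by Ddt. Both deletions are present in the whole body, both groups carry the Apoe deletion and both had the diet, so that the comparison is of MIF-2 loss on a hyperlipidemic background with no wild-type liver beside it. Several sections were lysed and combined for each library, and full-length cDNA was made from polyadenylated RNA with no mark of strand. In such bulk samples, fewer cells of a type and less RNA per cell cannot be told apart. The labels tie no library to a named animal, so p-values measure the spread between these libraries, part of which may be technical.

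The ribosome is built from ribosomal RNA and about as many proteins, most of them small and basic, as there are core genes. The small subunit holds the mRNA and reads its codons, and the large subunit joins the amino acids. The P-stalk, made of Rplp0 with Rplp1 and Rplp2, reaches out from the large subunit and receives the elongation factors. Ribosomal protein mRNAs are short and abundant, and in mammals they begin with a C followed by a run of pyrimidines, the 5′ terminal oligopyrimidine (TOP) tract, through which mTORC1 signalling adjusts their translation to nutrients. Hepatocytes depend on this machinery for the plasma proteins they secrete.

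The sequence around the annotated starts of these genes was searched for short motifs. RefSeq promoter entries (GRCm38.p6, 250 bases before to 50 after the annotated start) matched 69 of the 89 genes, 57 of them core genes. The letters CTTTCC are a short pyrimidine run with the C that a TOP mRNA begins with. On the strand that reads like the mRNA, they lay within 50 bases of an annotated start in 18 of 57 core genes (31.6%). Of the 27025 genes with an entry, 5.43% had them there. On either strand the shares were 33.3% and 10.3%. The binding sequence of ETS factors, CCGGAAG, was on either strand of the 300-base window in 24 core genes (42.1%) against 9.93% of all genes, that of YY1, AAGATGGC, in 5 (8.77%) against 3.19%, and TATAAA in 6 (10.5%) against 15.7%. None of these 4 motifs contains another. They are matches of letters and no binding was measured. Shown here are 30 bases around CTTTCC (capitals) for 3 genes with a small and 3 with a larger difference between the genotypes, chosen after their values were seen, to show the pyrimidine run in genes of either kind.
Rpl28 (chr7:4792955-4792984, plus strand): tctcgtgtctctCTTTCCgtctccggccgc
Rps27 (chr3:90213630-90213659, minus strand): ccgctttcgctcCTTTCCggcggtgacgac
Rpl38 (chr11:114668568-114668597, plus strand): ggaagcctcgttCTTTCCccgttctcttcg
Rpl13a (chr7:45128719-45128748, minus strand): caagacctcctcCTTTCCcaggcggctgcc
Rps19 (chr7:24884623-24884652, plus strand): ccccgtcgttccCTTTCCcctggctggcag
Rpl18 (chr7:45718062-45718091, plus strand): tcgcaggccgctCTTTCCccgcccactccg
Positions are counted from the start of the promoter entry used, and the 69 genes had 81 entries. In Rpl38 the first capital is that start itself. In Rpl28, Rps27, Rpl13a and Rpl18 it lies 2, 1, 9 and 3 bases after it, and in Rps19 it lies upstream of it, at position -41. The windows of Rps19, Rpl38 and Rpl18 lie inside the annotated genes, which begin at 24884592, 114667818 and 45715467. The starts used for these 3 genes are therefore not the outermost ones.

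Library depth and identity set how these values can be read. Total counts were between 2318148 and 10764182. Ddt was at 233 to 972 CPM (counts per 1e6, TMM-normalized) in the Apoe-/- and at 2.51 to 5.49 CPM in the Mif-2-/- Apoe-/- libraries, so the genotype labels hold for all 9. Apoe was counted in both groups, at 768 to 1805 CPM and at 1174 to 2299 CPM, and does not check the background deletion. The 15 hepatocyte markers summed to 111913 to 354200 CPM in Apoe-/- and 89817 to 309797 CPM in Mif-2-/- Apoe-/- libraries, as liver should give. Summed macrophage markers (14 genes) were at 1486 to 3480 and 1837 to 2507 CPM, and summed lymphocyte markers (12 genes) at 40.0 to 62.5 and 47.7 to 84.7 CPM. The endothelial (10 genes, 763 to 1048 against 433 to 1295 CPM), stellate and fibroblast (10 genes, 256 to 545 against 273 to 604 CPM), cholangiocyte (6 genes, 91.0 to 306 against 67.4 to 307 CPM), neutrophil (6 genes, 22.5 to 65.3 against 31.1 to 64.5 CPM) and erythroid (4 genes in the table, 99.5 to 320 against 59.6 to 217 CPM) sums overlapped between the genotypes too. Among lymphocyte markers, the T cell receptor chain Cd3d was at 0 in 1 Mif-2-/- Apoe-/- library and Cd79a, of B cells, at 0 in 1 library of each genotype.

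The ribosomal protein genes took 1.20% to 2.63% of each library. In the Apoe-/- livers their share of all counts was 2.47%, 2.54%, 2.44%, 2.63% and 1.82% in replicates 1 to 5. In the Mif-2-/- Apoe-/- livers it was 1.27%, 2.40%, 1.20% and 2.14% in replicates 1 to 4. Mif-2-/- Apoe-/- replicates 1 and 3 were below every Apoe-/- library, replicate 2 lay near the upper Apoe-/- libraries and replicate 4 in between, so the genotypes overlapped. The means were 2.38% ± 0.319 (SD, n = 5) and 1.75% ± 0.605 (SD, n = 4), a difference of 0.629 percentage points with a spread within genotypes of 0.464. Counting error was small beside this, since the 95% Wilson interval of a share reached at most 0.0197 points to either side. The share moved with the make-up of the whole library. The 3 libraries with the lowest ribosomal protein share, Mif-2-/- Apoe-/- replicates 3 and 1 and Apoe-/- replicate 5, were also the 3 in which the 10 most abundant genes took the least (13.3%, 12.5% and 14.7%, against 17.0% to 26.3% elsewhere). In the same 3 libraries other mRNAs of over 4000 nt took the most (17.9%, 15.5% and 15.5%, against 7.94% to 13.998%) and other mRNAs of up to 700 nt the least (2.49%, 3.28% and 3.71%, against 4.12% to 7.39%). With the 10 most abundant genes taken out of the totals, the difference between the genotypes was 0.853 points. The part of mRNA length in the share was not tested.

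**Figure D1:**
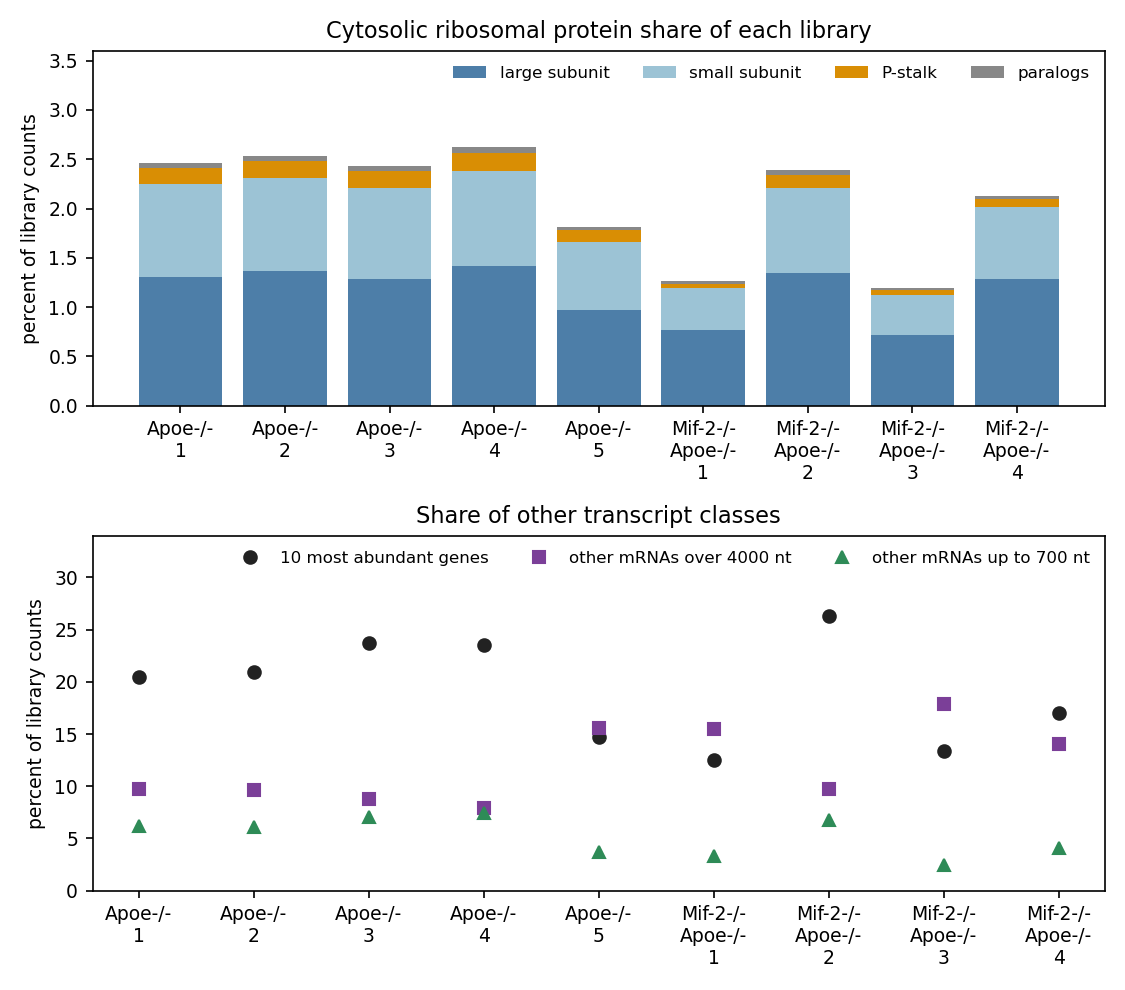
Top, stacked bars of the percent of each library's counts on large subunit, small subunit, P-stalk and paralog genes. Bottom, the percent on the 10 most abundant genes (circles), other mRNAs over 4000 nt (squares) and other mRNAs up to 700 nt (triangles). Each position is 1 library of the named genotype and replicate, and the lowest ribosomal protein shares (1.20%, 1.27% and 1.82%) stand over the highest squares.

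Within the ribosomal protein counts, the balance of the subunits separated the genotypes where the total did not. The P-stalk genes made up 6.72%, 7.03%, 6.91%, 7.17% and 6.44% of the ribosomal protein counts in Apoe-/- replicates 1 to 5, and 3.68%, 5.37%, 4.18% and 3.83% in Mif-2-/- Apoe-/- replicates 1 to 4. No library of one genotype reached the range of the other, and Apoe-/- replicate 5, low in its total, kept a stalk share like that of its group. Small subunit genes made up 37.5% ± 0.742 in Apoe-/- (36.3% to 38.1%) and 34.5% ± 1.18 in Mif-2-/- Apoe-/- livers (33.5% to 36.2%), also without overlap. Large subunit genes outside the stalk made up 53.3% ± 0.653 (52.5% to 54.1%) and 59.0% ± 1.97 (56.1% to 60.3%), higher in every Mif-2-/- Apoe-/- library. Without Rpl36, the large subunit gene with the largest gain in share, the values were 51.9% ± 0.632 and 56.8% ± 1.80. These are descriptions of shares that sum to a fixed total, so that a higher share of one subunit lowers the others.

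**Figure D2:**
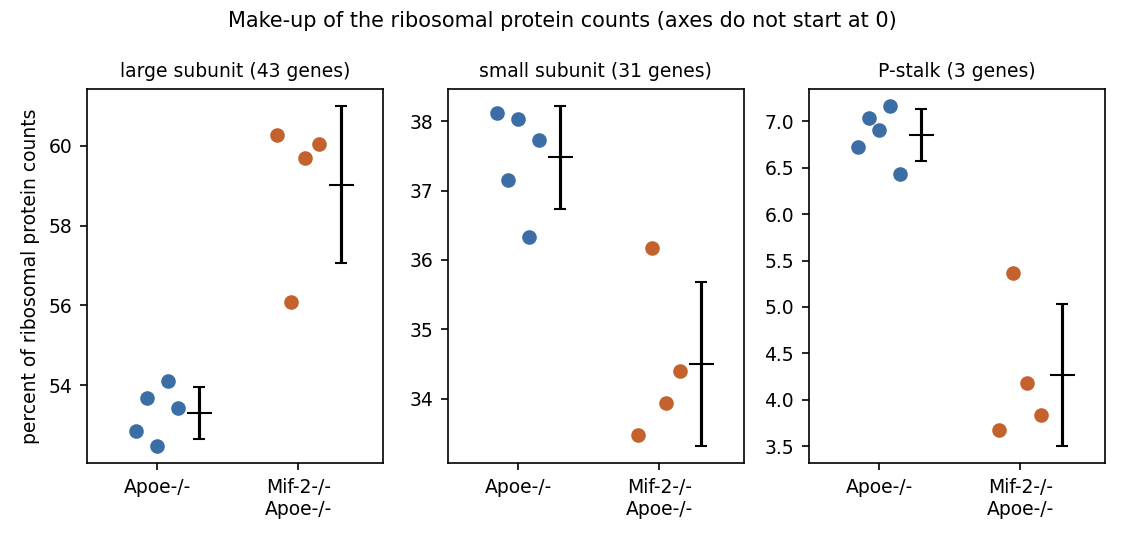
Percent of each library's ribosomal protein counts on large subunit, small subunit and P-stalk genes. Each point is 1 library and the bar is the mean ± SD (n = 5 Apoe-/-, n = 4 Mif-2-/- Apoe-/-). The genotypes do not overlap in any panel, and the stalk points lie at 6.44% to 7.17% and 3.68% to 5.37%.

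Few single genes carried this difference in balance by themselves. Set against the ribosomal protein total of the same library, 4 of 76 core genes with at least 10 CPM were higher in every Apoe-/- than in every Mif-2-/- Apoe-/- library, and 2 were lower. Over all genes tested, scaled in the same way, 0.67% and 3.87% did so. These 2 shares are shaped by the scaling, because the mean ribosomal protein total is lower in Mif-2-/- Apoe-/- livers. Dividing by it raises other genes there, and on the CPM scale the shares were 2.24% and 2.03%. The 4 of 76 beside 0.67% is therefore no measure of an excess. Among the higher ones were Rplp0 of the stalk, Rps3a1 of the small subunit and Rpl9 of the large subunit. Rplp0 took 2.68% ± 0.347 of the ribosomal protein counts in Apoe-/- against 1.77% ± 0.385 in Mif-2-/- Apoe-/- livers. The 2 on the other side were Rpl36, with 2.98% ± 0.464 and 5.07% ± 1.44, and Rpl21, with 0.571% ± 0.0678 and 0.812% ± 0.288. Their Mif-2-/- Apoe-/- means were raised by replicate 4, where Rpl36 took 7.13% and Rpl21 1.24%.

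Gene by gene, most ribosomal protein mRNAs were at a higher mean level in Apoe-/- livers, but none passed the test. After the filter on low counts, 87 of the 89 genes were among the 16860 tested. By edgeR's quasi-likelihood test with Benjamini-Hochberg adjustment, 0 of the 87 had an adjusted p under 0.05, where 0.13% of all genes did. At an unadjusted p under 0.05, 27 of the 87 had the higher values in Apoe-/- livers and 0 in the other genotype, against 6.52% and 8.99% of all genes. DESeq2 called 5 of the ribosomal protein genes, all higher in Apoe-/- livers, where 2.52% of the genes with an adjusted p were called in this direction. The log2 fold change, Apoe-/- over Mif-2-/- Apoe-/-, was above 0 in 82 of 87 ribosomal protein genes and in 43.5% of all genes, and its median was 0.75 against -0.17. Genes of the same library rise and fall together, so the 87 values are not separate observations of the genotype. Without Mif-2-/- Apoe-/- replicate 2, the median was 1.14 and edgeR called 9 of the genes, where 1.23% of all genes were called in this direction. DESeq2 then called 40 (6.8% of all), and without Apoe-/- replicate 5 it called 19 (5% of all).

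The 9 genes called by edgeR without Mif-2-/- Apoe-/- replicate 2 included Rplp0 and Rplp2 of the stalk and the paralog Rps27l. The others were Rps3, Rps3a1, Rps7, Rps16, Rps20 and Rps23 of the small subunit. No large subunit gene outside the stalk was among them, but this did not hold for DESeq2. On the same libraries DESeq2 called large subunit genes too, among them Rpl13a, Rpl18, Rpl10 and Rpl9. Rps16 and Rps23, which are described only here, both lie near the decoding side of the small subunit. Over all 9 libraries Rps16 was at 459, 417, 381, 485 and 195 CPM in Apoe-/- livers and at 120, 337, 92.0 and 127 CPM in the other genotype, with a log2 fold change of 1.20 ± 0.41 (adjusted p = 0.196 by edgeR). Rps23 was at 260, 258, 265, 360 and 103 CPM against 63.9, 240, 55.4 and 76.8 CPM, with a log2 fold change of 1.20 ± 0.47 (adjusted p = 0.254 by edgeR). In both genes Mif-2-/- Apoe-/- replicate 2 stood among the Apoe-/- values while the other 3 lay below all of them. Over all 87 genes, 17 had a log2 fold change above 1, and among those of at least 10 CPM the SE ran from 0.27 to 0.60.

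By role, the medians ran from the stalk down to the paralogs. The median log2 fold change was 1.31 over the 3 stalk genes, and all 3 had an unadjusted p under 0.05. The 31 small subunit genes had a median of 0.85, all above 0, and 13 had an unadjusted p under 0.05. The 43 large subunit genes had a median of 0.64, 41 were above 0 and 9 had an unadjusted p under 0.05. Of the 11 paralogs 9 were tested, with a median of 0.21, 6 above 0 and 2 with an unadjusted p under 0.05. Rps19bp1 had a log2 fold change of 0.45 ± 0.33 (SE).

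**Figure D3:**
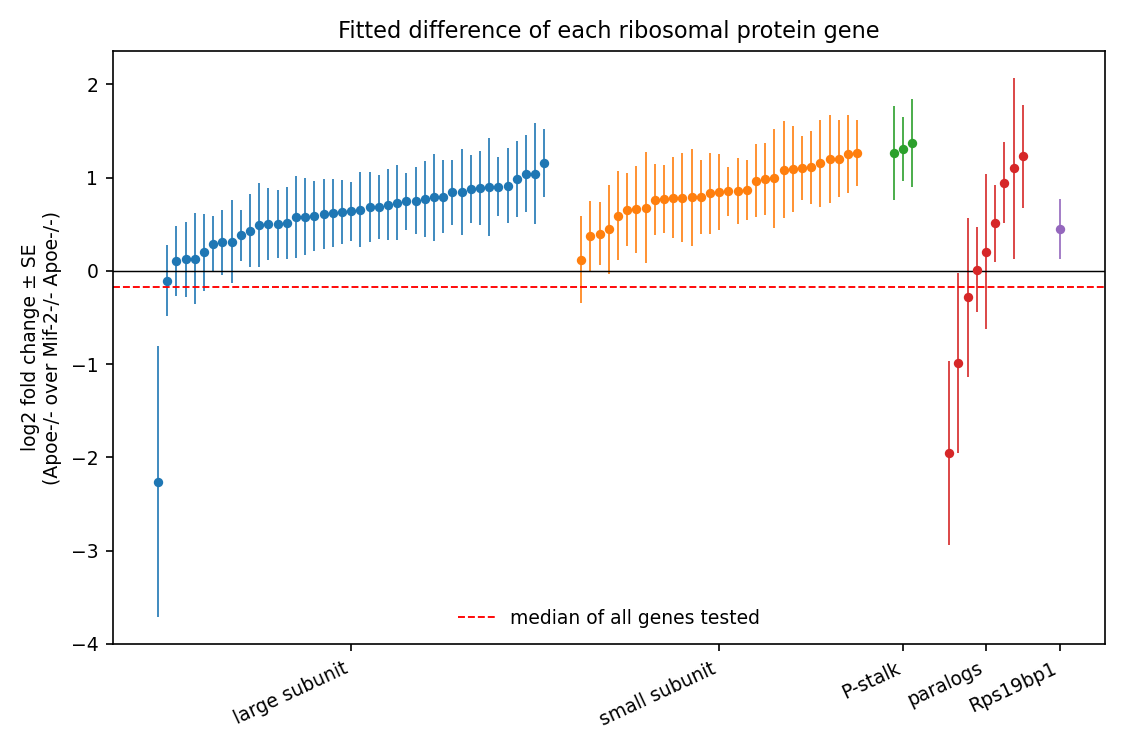
Fitted log2 fold change (Apoe-/- over Mif-2-/- Apoe-/-, bars are ± 1 SE) of the 87 genes tested, grouped by role and sorted within each group. The dashed line is the median of all 16860 genes tested, -0.17. The large subunit point at -2.26 is Rpl39, with 13 counts over all libraries.

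The stalk was the group with the largest differences. Rplp0 (chromosome 5), the base of the stalk, was at 787, 907, 883, 1162 and 598 CPM in Apoe-/- replicates 1 to 5 and at 231, 572, 266 and 334 CPM in Mif-2-/- Apoe-/- replicates 1 to 4. All 5 Apoe-/- values lay above all 4 Mif-2-/- Apoe-/- values, with replicate 5 of the first and replicate 2 of the second next to each other. Its log2 fold change was 1.31 ± 0.34 (SE), at adjusted p = 0.138 by edgeR and 0.00884 by DESeq2. An exact two-sided permutation test gave p = 0.00794, the smallest that 9 libraries split 5 and 4 can give (not adjusted over the genes). The 3 of the 87 genes that reached it were those with no overlap between the genotypes. Of all genes tested, 2.24% were higher and 2.03% lower in Apoe-/- livers with no overlap.

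Rplp1 and Rplp2, the small acidic proteins that sit on Rplp0 and contact the elongation factors, had differences of the same size with a wider spread. Rplp1 was at 1172, 1280, 1022, 1457 and 464 CPM in Apoe-/- and at 224, 814, 161 and 469 CPM in Mif-2-/- Apoe-/- livers, so that Apoe-/- replicate 5 lay below 2 of the Mif-2-/- Apoe-/- libraries. Its log2 fold change of 1.37 ± 0.47 (adjusted p = 0.195 by edgeR, 0.0793 by DESeq2) was the largest of the core genes. Rplp2 was at 312, 389, 385, 473 and 125 CPM against 64.1, 307, 59.5 and 134 CPM, with a log2 fold change of 1.26 ± 0.50 (adjusted p = 0.258 by edgeR). Again the Apoe-/- library at the bottom was replicate 5 and the Mif-2-/- Apoe-/- library at the top was replicate 2.

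In the small subunit, Rps2 had the tightest values. Rps2, near the entry of the mRNA channel, was at 654, 719, 604, 829 and 521 CPM in Apoe-/- and at 352, 395, 358 and 369 CPM in Mif-2-/- Apoe-/- livers. The Mif-2-/- Apoe-/- libraries differed by an SD of only 18.9 CPM, replicate 2 was among them rather than with the Apoe-/- group, and no values overlapped. The log2 fold change was 0.85 ± 0.27, and the adjusted p was 0.174 with edgeR but 0.00281 with DESeq2. The exact permutation p was again 0.00794. Of its 50-base words 79.0% also occur in other annotated transcripts, so reads of its copies cannot be told apart from its own. Rplp0 and Rps2 were the only ribosomal protein genes higher in Apoe-/- livers with no overlap, 2 of 87 against 2.24% of all genes. This count rested on 1 library of each genotype. Without Apoe-/- replicate 5 it was 34 against 6.31% of all genes, and without Mif-2-/- Apoe-/- replicate 2 it was 24 against 6.13%.

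Rps3a1 and Rps7, small subunit genes also called by DESeq2 (adjusted p = 0.0164 and 0.0322), followed the libraries more closely. Rps3a1 was at 461, 423, 412, 520 and 233 CPM in Apoe-/- and at 144, 283, 114 and 143 CPM in Mif-2-/- Apoe-/- livers, for a fitted log2 fold change of 1.26 ± 0.35 (adjusted p = 0.147 by edgeR). Rps7 was at 353, 313, 288, 441 and 211 CPM against 134, 240, 97.8 and 127 CPM, a log2 fold change of 1.10 ± 0.34 (adjusted p = 0.171 by edgeR). In both, Mif-2-/- Apoe-/- replicate 2 passed Apoe-/- replicate 5 and no other Apoe-/- library.

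Of the small subunit proteins with well known roles, Rpsa, the laminin-binding protein and the most abundant of these mRNAs, was at 1858, 1862, 1609, 2284 and 1104 CPM in Apoe-/- and at 595, 1517, 646 and 1087 CPM in Mif-2-/- Apoe-/- livers. Only Mif-2-/- Apoe-/- replicate 2 lay in the Apoe-/- range, and the log2 fold change was 0.86 ± 0.35 (adjusted p = 0.267 by edgeR). Rps6, the substrate of S6 kinase, was at 222 ± 55.2 CPM in the 5 Apoe-/- and 122 ± 40.2 CPM in the 4 Mif-2-/- Apoe-/- libraries (mean ± SD here and below), a log2 fold change of 0.87 ± 0.32. Rps3, which lies at the mRNA entry and also acts in DNA repair, was at 529 ± 165 and 245 ± 133 CPM, a log2 fold change of 1.11 ± 0.39, and only 2.96% of its 50-base words occur elsewhere. Rps19, the gene most often mutated in Diamond-Blackfan anemia, was at 926 ± 267 and 515 ± 288 CPM, a log2 fold change of 0.85 ± 0.40. Rps20 was at 375 ± 121 and 157 ± 109 CPM, with a log2 fold change of 1.26 ± 0.42 and adjusted p = 0.184 by edgeR. Rack1, a scaffold on the head of the small subunit whose symbol the rule does not take, was at 689 ± 145 and 415 ± 160 CPM, a log2 fold change of 0.73 ± 0.32. None of these 6 passed edgeR's adjusted threshold.

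In the large subunit, Rpl9 was the gene with the largest log2 fold change. Rpl9 was at 210, 254, 203, 275 and 101 CPM in Apoe-/- and at 76.7, 120, 55.2 and 122 CPM in Mif-2-/- Apoe-/- livers, for a fitted log2 fold change of 1.16 ± 0.36 (adjusted p = 0.175 by edgeR, 0.0396 by DESeq2). Apoe-/- replicate 5 alone overlapped the other genotype. Rpl5 and Rpl11, which with 5S rRNA hold back Mdm2 when ribosome assembly fails, were at 136 ± 46.5 against 80.7 ± 28.5 CPM and at 657 ± 174 against 424 ± 174 CPM. Their log2 fold changes were 0.75 ± 0.36 and 0.63 ± 0.34 (adjusted p = 0.338 and 0.391 by edgeR).

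The other large subunit genes with known roles gave smaller or like values. Rpl13a, part of a complex that silences inflammatory mRNAs after interferon-gamma, was at 657 ± 123 and 392 ± 136 CPM, a log2 fold change of 0.75 ± 0.30. Rpl10, which joins late and is needed for the subunits to meet, was at 640 ± 149 and 411 ± 154 CPM (0.64 ± 0.32 on the log2 scale). Rpl26, which binds p53 mRNA, was at 497 ± 122 and 348 ± 186 CPM (0.51 ± 0.39 on the log2 scale). Rpl3, next to the peptidyl transferase centre, was at 223 ± 50.8 and 182 ± 31.4 CPM, a log2 fold change of 0.29 ± 0.29. Its Mif-2-/- Apoe-/- values of 163, 206, 211 and 148 CPM all lay inside the Apoe-/- range of 137 to 263 CPM. None of these 4 passed the adjusted threshold.

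At the other end stood genes whose means hardly differed. Rpl36 was at 940, 1345, 861, 1129 and 595 CPM in Apoe-/- and at 707, 1264, 480 and 1741 CPM in Mif-2-/- Apoe-/- livers, for a fitted log2 fold change of -0.11 ± 0.38 that turned to 0.07 with TMMwsp size factors. Its highest value of all 9 libraries was that of Mif-2-/- Apoe-/- replicate 4 and its lowest that of replicate 3 of the same genotype. The same held for Rpl28, at 718 ± 364 CPM in Mif-2-/- Apoe-/- and 773 ± 191 CPM in Apoe-/- livers (0.11 ± 0.38 on the log2 scale), whose replicate 4 reached 1099 CPM and replicate 3 only 287 CPM. Rpl21 was at 187 ± 52.4 and 171 ± 105 CPM (0.13 ± 0.40 on the log2 scale), and Rps27, the small zinc finger protein, at 181 ± 58.1 and 167 ± 119 CPM (0.12 ± 0.47 on the log2 scale). Both had their top value in Mif-2-/- Apoe-/- replicate 4, 304 and 286 CPM. For these genes the spread within the genotype was wider than the difference between the means.

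The paralogs, some of which can replace a core protein in some tissues, did not follow one pattern. Rps27l, the p53-induced relative of Rps27, was at 245, 277, 304, 423 and 85.8 CPM in Apoe-/- and at 69.1, 282, 39.3 and 68.4 CPM in Mif-2-/- Apoe-/- livers. The fitted log2 fold change was 1.23 ± 0.56 (adjusted p = 0.308 by edgeR), beside 0.12 for Rps27, and 3 of its 4 Mif-2-/- Apoe-/- values lay below all Apoe-/- values. Rpl36al was at 282 ± 80.4 and 147 ± 103 CPM (0.95 ± 0.43 on the log2 scale) and Rpl7l1, a factor close to Rpl7, at 65.0 ± 19.5 and 45.6 ± 20.2 CPM (0.51 ± 0.41 on the log2 scale). Rpl37rt, a retrogene copy of Rpl37 with 91.0% of its words shared, was at 35.5 ± 10.3 and 35.1 ± 21.8 CPM.

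The remaining paralogs were near the limit of detection. Rpl22l1 was at 4.70 ± 1.97 and 2.21 ± 1.47 CPM and Rps27rt at 4.13 ± 1.21 and 5.07 ± 2.39 CPM. Rpl3l, the striated muscle form of Rpl3, had 6, 6, 2, 3 and 5 counts in Apoe-/- and 28, 2, 9 and 17 counts in Mif-2-/- Apoe-/- libraries. On the CPM scale its Apoe-/- values (at most 0.97 CPM) lay below all Mif-2-/- Apoe-/- values (1.14 to 5.69 CPM), the single ribosomal protein gene of this kind beside 2.03% of all genes, with a log2 fold change of -1.96 ± 0.99 and adjusted p = 0.361 by edgeR. Rpl10l, expressed in testis, had 0 counts in all 9 libraries, where 3 counts would be 0.279 to 1.29 CPM of the raw totals. Rpl39l, likewise known from testis, had 11 counts in Mif-2-/- Apoe-/- replicate 3 and 0 elsewhere. Neither passed the filter.

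The libraries moved as wholes, as a view across the 76 core genes with at least 10 CPM shows. Apoe-/- replicate 5 had the lowest value of its group in 74 of 76 genes and replicate 4 the highest in 61. Among the Mif-2-/- Apoe-/- libraries, replicate 3 was lowest in 58 genes and replicate 2 highest in 54. Against the mean of the Apoe-/- libraries, the median difference of the core genes was -1.27 log2 units in Mif-2-/- Apoe-/- replicate 1, -0.02 in replicate 2, -1.60 in replicate 3 and -0.61 in replicate 4, and it was -0.78 in Apoe-/- replicate 5. All 76 genes were below that mean in Mif-2-/- Apoe-/- replicate 1 and in Apoe-/- replicate 5, 74 in replicate 3 of Mif-2-/- Apoe-/-, 61 in its replicate 4 and 39 in its replicate 2. Over the 9 libraries the median correlation between the log2 levels of core gene pairs was 0.87, and 0.85 with each genotype's mean taken out, over 2850 pairs that share library, depth and normalization.

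**Figure D4:**
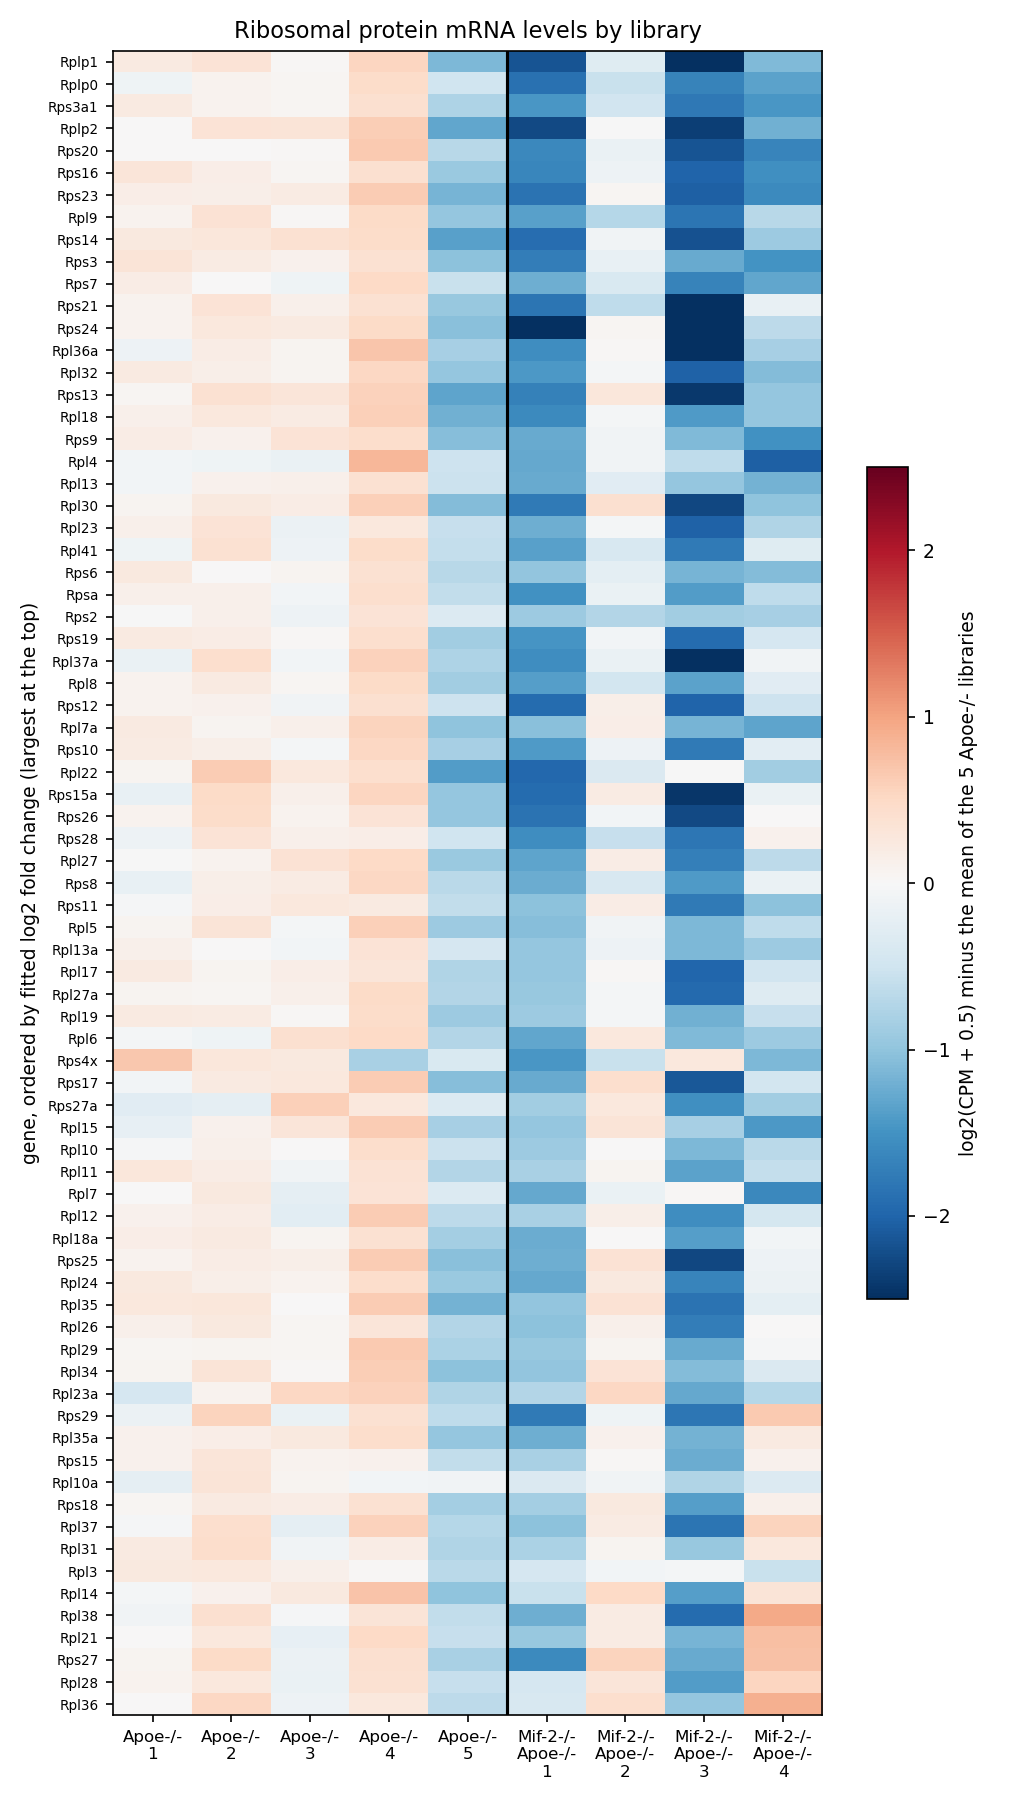
Level of 75 of the 76 core genes of at least 10 CPM (rows, 1 gene not being reported here by name, ordered by fitted log2 fold change with the largest at the top) in each of the 9 libraries (columns), as log2(CPM + 0.5) minus the mean of the 5 Apoe-/- libraries. Blue is lower and red higher. Mif-2-/- Apoe-/- replicates 1 and 3 are blue in nearly every row, replicate 2 is near 0, and replicate 4 runs from blue at the top to red at the bottom.

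The genes that were high in Mif-2-/- Apoe-/- replicate 4 encode short proteins for the most part. In Mif-2-/- Apoe-/- replicate 4 the 35 core genes encoding up to 150 residues had a median difference from the Apoe-/- mean of -0.31 log2 units and the 41 longer ones of -0.82, with a correlation of -0.49 between the difference and log2 protein length. Replicate 3 ran the other way, with medians of -1.95 for short and -1.33 for long ones and a correlation of 0.50. In replicates 1 and 2 the correlations were 0.25 and -0.17. These are correlations across genes of 1 library each. The genes of up to 150 residues together made up 37.6%, 40.6%, 32.0% and 46.3% of the ribosomal protein counts in Mif-2-/- Apoe-/- replicates 1 to 4, and 37.3% to 40.8% in the Apoe-/- libraries. Rplp1 (114 residues) and Rplp2 (115 residues) were among the lowest short genes of replicate 4.

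**Figure D5:**
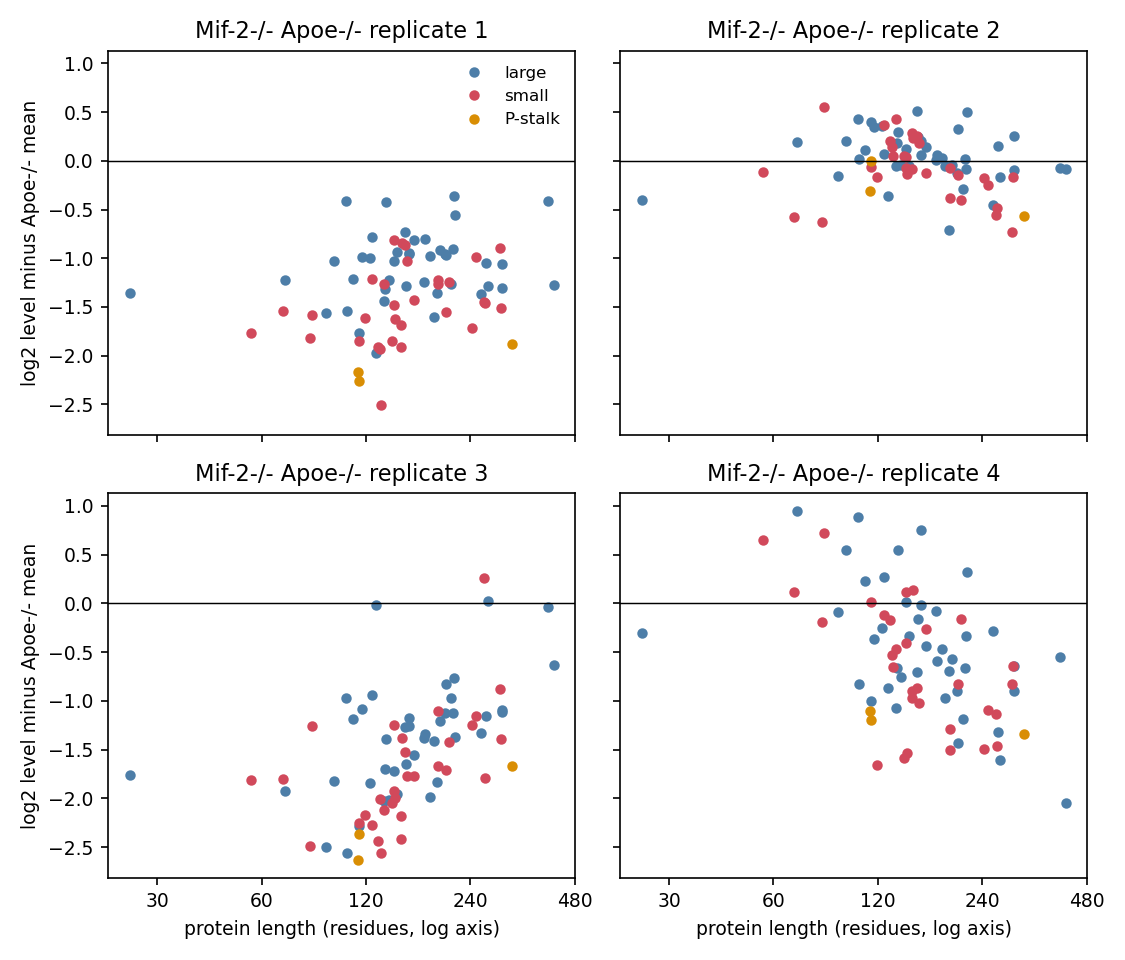
Difference of each core gene's log2(CPM + 0.5) from the Apoe-/- mean against the length of its protein (log axis), in the 4 Mif-2-/- Apoe-/- libraries, coloured by subunit. Points fall with length in replicate 4 (r = -0.49) and rise with it in replicate 3 (r = 0.50), and the 3 stalk points lie below 0 in all 4 libraries, nearest to it in replicate 2.

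Transcript length also moved with the difference between genotypes across the whole transcriptome. Among tested genes other than the ribosomal protein genes, the median log2 fold change was 0.32 for 176 mRNAs of up to 500 nt, 0.45 for 1114 mRNAs of 500 to 1000 nt, 0.08 for 3692 of 1000 to 2000 nt, -0.21 for 6164 of 2000 to 4000 nt and -0.46 for 4200 longer ones. The ribosomal protein genes, with a median mRNA of 681 nt, had a median of 0.58 in the shortest bin (22 genes), of 0.77 in the bin of 500 to 1000 nt (45 genes) and of 0.70 in that of 1000 to 2000 nt (18 genes). With each library's trend on mRNA length taken out, an alternative added after the data were seen, the median over the 87 genes was 0.39, 68 were above 0 (50.2% of all genes in that fit), and 12 had an unadjusted p under 0.05 with higher values in Apoe-/- livers (7.53% of all genes). Rplp0 then had a log2 fold change of 1.19 ± 0.33 and Rps3a1 of 0.97 ± 0.31 (adjusted p = 0.154 and 0.182 by edgeR). What the length trend contributes to the main values was otherwise not tested.

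Genes of the same machinery outside the rule gave the following counts, with none called by edgeR in any of these lists. Over 9 genes of elongation factors and their partners the median log2 fold change was 1.05, with 6 at an unadjusted p under 0.05 and the higher values in Apoe-/- livers and 1 with the lower ones. The latter was Eef2k, the kinase that inactivates elongation factor 2 (-1.35 ± 0.61 on the log2 scale). DESeq2 called 2 of the 9, Eif5a, a factor that helps the ribosome past slow peptide bonds, and Eef1akmt1, which methylates an elongation factor and is not one itself (adjusted p = 0.0357 and 0.00396). The 29 initiation factor genes had a median of 0.38 with 3 and 0 at that unadjusted level. The 22 genes with a TOP mRNA outside the ribosomal protein genes, a list that includes Rack1 and Fau, had a median of 0.69, 21 of them above 0, with 9 and 0. The 85 ribosome biogenesis genes had a median of -0.15, close to that of all genes, with 2 and 6, and 19 regulators of ribosome production one of 0.07 with 0 and 1. Of all genes, 6.52% were at that level with higher and 8.99% with lower values in Apoe-/- livers. DESeq2 called 4 biogenesis genes, 1 higher and 3 lower in Apoe-/- livers, and 0 of the initiation, TOP and regulator genes. Of the 16860 genes tested it called 352 higher and 373 lower in Apoe-/- livers.

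Proteins of the mitochondrial ribosome, encoded in the nucleus by Mrpl and Mrps genes, were treated as a separate list. Of 78 such genes 77 were tested, the median log2 fold change was 0.60 and 62 were above 0, against 43.5% of all genes. At an unadjusted p under 0.05 by edgeR, 17 had higher values in Apoe-/- livers, against 6.52% of all genes. DESeq2 called 7, all higher in Apoe-/- livers, where 2.52% of the genes with an adjusted p were called in this direction. With no overlap, 8 were higher and 0 lower in Apoe-/- livers, against 2.24% and 2.03% of all genes. Their share of counts was 0.551% ± 0.0610 in Apoe-/- against 0.437% ± 0.0418 in Mif-2-/- Apoe-/- livers. Of 35 ribosomal protein pseudogenes 21 were tested, with a median of 0.39 and 12 above 0, and all 35 together took only 0.0179% ± 0.00345 and 0.0159% ± 0.00375 of the counts.

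Levels per length differed widely among core genes. Per kb of annotated mRNA, the mean over all libraries of the 76 core genes of at least 10 CPM ran from 17.0 to 2629 CPM per kb with a median of 333, and the 10th and the 90th percentile lay 8.42 times apart. Rpl36 (2629 CPM per kb), Rps15 (2148) and Rps18 (1580) stood highest, with Rplp1 (1573) at the level of Rps18. Rps15 was at 1203 ± 256 CPM in Apoe-/- against 912 ± 388 CPM in Mif-2-/- Apoe-/- livers, and Rps18 at 984 ± 273 and 760 ± 372 CPM. Lowest among genes of at least 10 CPM were Rps4x (17.0 CPM per kb), the X-linked form of Rps4, the paralog Rpl7l1 (43.01) and Rpl5 (54.4). These levels depend on the 1 transcript taken for each gene, which for Rpl5 has 2045 nt for 297 residues. Rpl39, a core gene singled out after its values were seen, had 13 counts in all, 10 of them in Mif-2-/- Apoe-/- replicate 4.

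Processed copies of these genes are spread through the genome, and how reads with several matches were counted is not given in the sources used here. In GENCODE transcripts, 55 of the 89 genes share more than 50% of their 50-base words with another annotated gene and 4 share none. Among core genes the shared percentage and the level per kb were unrelated in rank (Spearman 0.019 over 76 genes). The 8 genes of at least 10 CPM that share at most 20% of their words had a median log2 fold change of 0.95, all above 0, and the 53 that share over 50% had a median of 0.69, with 52 above 0.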

How the data were processed

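The 5 Apoe-/- and 4 Mif-2-/- Apoe-/- liver RNA-seq libraries were put into genotypes by their labels. Reads were checked with FastQC, trimmed with cutadapt and aligned with HISAT2, and mm10 is the build in the submitters' processing notes. The authors deposited raw counts of reads on exons for 27179 Entrez genes, without normalization. A second header line was left out. Symbols from RefSeq (GRCm38.p6) matched 25275 identifiers. The table has 5 Apoe-/- libraries where the methods state fewer mice, and all were kept.

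A gene was kept if 3 or more libraries of a genotype had 1 count or more, and the 10 most abundant genes, none of them ribosomal, were left out. The remaining 16860 went into edgeR 4.0.16 (quasi-likelihood, TMM, Benjamini-Hochberg over all genes) under R 4.3.3, with no covariate. The SE is the log2 fold change over the square root of F. Permutation tests were exact, two-sided, on log2(CPM + 0.5) over 126 arrangements. DESeq2 1.42.0 was run on all genes with a count and gave no adjusted p for 9102. Lengths and words were taken from GENCODE M21, with the principal transcript of each gene. The test was tested on simulated data. Python 3.11.15 with pandas 2.3.3 and matplotlib 3.10.9 made tables and figures.

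Total counts were 2318148 to 10764182, so 3 counts are 0.279 to 1.29 CPM of raw totals. Intervals and floors cover counting error only. The genes, lists, roles and alternatives were chosen with earlier results of these data known. Named with values were genes of known role, paralogs, the 5 largest and 5 smallest log2 fold changes and the 3 highest and 3 lowest levels per kb among genes of at least 10 CPM, the 5 smallest p, and every gene called or at no more than 3 counts in each library. Alternatives were RLE and TMMwsp size factors, no filter or edgeR's own, the 10 most abundant genes kept, mitochondrial, rRNA, Gm and Rik genes removed, a replicate block, DESeq2, and each library left out. A length trend, DESeq2 on the filtered genes and without each library, libraries 1 to 4 alone, and scaling to the ribosomal protein total were added after seeing the data. Some genes are not reported here by name. Proteins are not printed because no protein sequence table was used here.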

Additional observations from a re-analysis of the deposited data

Results flagged for a closer look

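Dixon's test was applied to the ribosomal protein shares and to the named genes' CPM in each genotype, and about 1 in 20 such groups is set apart by chance. It set apart 1 library in 9 of the 72 groups. Apoe-/- replicate 5 was far below the other 4 Apoe-/- libraries in the ribosomal protein share (1.82%), in the small subunit share (0.688%), in Rps3 (245 CPM) and in Rpl7l1 (30.6 CPM). Mif-2-/- Apoe-/- replicate 2 was far above the other 3 of its group in Rps6 (182 CPM), Rpl13a (593 CPM), Rps27l (282 CPM) and Rps20 (319 CPM). Rpl37rt was far above the rest in Mif-2-/- Apoe-/- replicate 4 (67.4 CPM).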

How the results depend on the processing

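With edgeR, 0 ribosomal protein genes were called under both other size factors, without a filter, with edgeR's own filter, with the 10 most abundant genes kept, with mitochondrial, rRNA, Gm and Rik genes removed and with the length trend taken out. DESeq2 called 5, also on the filtered genes. Leaving out 1 library in turn gave 0 to 9 by edgeR, the 9 without Mif-2-/- Apoe-/- replicate 2. DESeq2 gave 2, 2, 3, 2 and 19 without Apoe-/- replicates 1 to 5, and 2, 40, 1 and 2 without Mif-2-/- Apoe-/- replicates 1 to 4. The median log2 fold change stayed above 0 in every alternative, from 0.39 with the length trend taken out to 1.14 without Mif-2-/- Apoe-/- replicate 2 (0.55 to 1.14 over the 9 omissions with edgeR). TMMwsp moved the median of all genes from -0.17 to 0.00 and that of the ribosomal protein genes to 0.91. The difference in the share of counts was 0.446 to 0.845 points over the omissions. Genes without overlap numbered 3, where 2.24% of all genes were higher and 2.03% lower in Apoe-/- livers without overlap. Over the omissions they numbered 3 to 35. The share higher in Apoe-/- livers rose to 6.31% of all genes without Apoe-/- replicate 5 and 6.13% without Mif-2-/- Apoe-/- replicate 2. Libraries 1 to 4 of each genotype are the set without Apoe-/- replicate 5, so their 35 is not a separate result. The 6.31% is the share of all genes higher in Apoe-/- livers in that set. Scaled to the ribosomal protein total there were 7, not limited to the 76 core genes. Of all genes 0.67% and 3.87% had no overlap on that scale. The causes were not tested.

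Replicate numbers gave no pairing, since the deviations of same-numbered libraries correlated at 0.124, 0.0082, 0.061 and -0.012. With the replicate block, on libraries 1 to 4 of each genotype, edgeR called 14 genes, all higher in Apoe-/- (1.84% of all genes were), and the median was 1.03. The same libraries without the block gave 0 and 0.89.

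Of 639 values of named genes under alternatives, 591 kept direction and side of the threshold, 25 were past it only in the alternative and 23 had the other sign. Rpl36 turned to 0.068 with TMMwsp, to 0.18 under the replicate block and ranged from -0.35 to 0.25 over the omissions. Rpl37rt was at -0.0099 under the replicate block and at -0.16 to 0.54 over the omissions. With the length trend taken out, Rpl37rt was at -0.48, Rpl28 at -0.27, Rps27 at -0.32, Rpl21 at -0.21, Rps15 at -0.088 and Rps18 at -0.083. Over the omissions Rpl28 ranged from -0.16 to 0.39, Rps27 from -0.17 to 0.51, Rpl21 from -0.11 to 0.56 and Rps27rt from -0.49 to 0.036. Depth, at 2318148 counts or more, limits the paralogs of a few CPM. Rpl39 had 1 count even in Apoe-/- replicate 2, the library with the most counts, and the reason for its low counts was not tested.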
